A study of Mus musculus with 20 samples.

Results

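A set of 10 transcripts that glucocorticoids are known to raise was followed mouse by mouse in whole brain RNA of Katnal2-KO and wild-type (WT) mice. It holds Fkbp5, Sgk1, Tsc22d3, Zbtb16, Pdk4, Cdkn1a, Map3k6, Sult1a1, Plin4 and Errfi1, 10 of the 19463 genes in the table, and all 10 passed the filter of a mean value of at least 10. These genes were chosen by measured values of the same mice: their KO minus WT difference had opposite signs at the 2 ages. That difference is therefore described for them without a test. Tests were kept for 2 quantities that the choice did not use directly. These are the difference between the ages averaged over genotypes and the covariation with Fkbp5 between mice of the same group. The covariation is not fully independent of the choice, since genes that vary together between mice tend to share the sign of a group difference.

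Corticosterone, the main glucocorticoid of rodents, enters cells and binds the glucocorticoid receptor (Nr3c1) or the mineralocorticoid receptor (Nr3c2), which wait in the cytoplasm in a complex with Hsp90 and co-chaperones. The bound receptor moves to the nucleus and raises the transcription of a set of genes that differs between cell types. In brain these genes include Fkbp5, a co-chaperone that lowers the affinity of the receptor for hormone and so closes a feedback loop, and Pdk4, a kinase that shuts the pyruvate dehydrogenase complex and turns cells away from glucose oxidation. Their levels follow the hormone over the day and during stress.

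Male C57BL/6J mice, homozygous KO or WT, were taken at 3 weeks (P21) or 10 weeks (P70). This gave P21 WT, P21 KO, P70 WT and P70 KO groups of 5, and the comparison asks how loss of Katnal2, a microtubule-regulatory protein linked to autism, changes brain RNA. The KO allele came from a EUCOMM embryonic stem cell clone and lacks exon 3 in every tissue, which shifts the reading frame, and no group carried a further allele or received a treatment. Each library was made from poly-A RNA of 1 whole brain, so a value averages over all brain cell types, and fewer cells of a type and less RNA per cell cannot be told apart. Values are read abundances that the authors normalized with DESeq2, and they sum to 27310523 to 28423042 per mouse. These sums are normalized, so they do not show the sequencing depth.

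Katnal2 itself lay between 78.1 and 96.0 in P21 KO mice and between 99.3 and 115 in P21 WT mice, and between 95.1 and 125 in P70 KO mice against 101 to 141 in P70 WT mice. The groups did not overlap at P21 and overlapped at P70. The value covers the whole transcript, most of which the deletion leaves in place, so it checks the labels only weakly. All 7 neuron, 7 astrocyte and 7 oligodendrocyte markers were detected in each of the 4 groups. Both replicate 5 mice of P70 stood apart from the other 8 P70 mice: their mean correlation with the other mice of their group was 0.966 (KO mouse 5) and 0.975 (WT mouse 5), against 0.980 to 0.983 in the others, and each was the other's closest library (r = 0.988). The summed value of 7 astrocyte markers was 64195 and 75755 in these mice, below the range of 89732 to 100403 in the other 8, and Nr3c1 stood at 1362 and 1581 against 2156 to 3185. The neuron sum was also below the range of the other 8 in both mice, at 151374 and 148380 against at least 151863. Other sums were above that range in both: mural cells at 6403 and 5948 (others at most 5243), meningeal fibroblasts at 5446 and 6095 (at most 5226), ependymal cells at 946 and 812 (at most 732) and choroid plexus at 27123 and 27135 (at most 26107). The part of these differences in the results was not tested, and the main results are also given without 1 or both of these mice.

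The genomic setting of the 10 genes is given in GRCm38 coordinates. Fkbp5, Cdkn1a and Plin4 lie on chromosome 17, at 28399094 to 28517527 on the minus strand, 29090976 to 29100727 on the plus strand and 56100591 to 56109803 on the minus strand. Map3k6 and Errfi1 lie on the plus strand of chromosome 4, at 133240818 to 133252929 and 150853919 to 150868892. Sgk1 spans 21882184 to 21999903 on the plus strand of chromosome 10, Tsc22d3 140539528 to 140600659 on the minus strand of chromosome X, and Zbtb16 48654297 to 48836222 on the minus strand of chromosome 9. Pdk4 occupies 5483351 to 5496309 on the minus strand of chromosome 6 and Sult1a1 126672865 to 126676432 on the minus strand of chromosome 7. All are protein-coding.

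The receptor binds 2 half-sites with the letters AGAACA and TGTTCT, 3 bases apart, and the window from 250 bases before to 50 bases after each RefSeq start site (GRCm38.p6) was searched for them on both strands. For 9 of the 10 genes the table holds 18 windows, and Zbtb16 was not in it. The complete element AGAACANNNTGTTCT stood in 1 of them, in front of the fifth listed start site of Sgk1, at chr10:21993701-21993715 on the plus strand, from 189 to 175 bases before that start site. Over all 32851 windows of the table the complete element stood in 3, or 0.00913%. A half-site stood in 5 of the 18 windows (27.8%), against 19.0% of all windows, and these 5 belonged to Sgk1, Tsc22d3 and Sult1a1. A match describes letters in this short stretch and is not evidence of binding, and receptor sites further away were not searched. The stretches before the start sites of Sgk1 (chr10:21993640-21993889, plus strand), Sult1a1 (chr7:126676433-126676668, minus strand), Fkbp5 (chr17:28486150-28486399, minus strand) and Pdk4 (chr6:5496310-5496528, minus strand) are shown because they set the gene with the complete element and the gene with 2 separate half-sites beside the 2 genes to which the others are compared below, which have none. They read 5′ to 3′ up to the start site, or up to the first base annotated as untranslated, with half-sites in capitals.
Sgk1: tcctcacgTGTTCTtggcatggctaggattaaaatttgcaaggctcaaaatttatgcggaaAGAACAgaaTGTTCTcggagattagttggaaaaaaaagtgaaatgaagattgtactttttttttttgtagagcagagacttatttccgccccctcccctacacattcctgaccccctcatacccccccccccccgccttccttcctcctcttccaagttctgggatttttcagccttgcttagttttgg
Sult1a1: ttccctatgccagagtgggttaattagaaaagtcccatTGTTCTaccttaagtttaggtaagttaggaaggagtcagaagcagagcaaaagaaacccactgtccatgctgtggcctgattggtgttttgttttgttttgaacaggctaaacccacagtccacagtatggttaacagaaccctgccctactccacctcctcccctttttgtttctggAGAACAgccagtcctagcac
Fkbp5: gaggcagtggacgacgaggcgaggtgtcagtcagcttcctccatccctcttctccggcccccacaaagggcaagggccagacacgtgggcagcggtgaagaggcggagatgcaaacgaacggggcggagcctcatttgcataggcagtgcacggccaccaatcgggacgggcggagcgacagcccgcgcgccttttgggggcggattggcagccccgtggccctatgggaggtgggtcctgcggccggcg
Pdk4: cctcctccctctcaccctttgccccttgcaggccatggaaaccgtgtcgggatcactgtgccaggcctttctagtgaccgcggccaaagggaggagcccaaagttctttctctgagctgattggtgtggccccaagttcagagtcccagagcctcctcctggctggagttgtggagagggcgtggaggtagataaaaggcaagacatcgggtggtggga

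Values of the 10 genes in each mouse follow, ordered by what the proteins do and always from mouse 1 to mouse 5. The labels number the mice as replicates of a group and name no pairs. Deviations of same-numbered KO and WT mice correlated at r of -0.0091 to 0.26 at P21 and 0.075 to 0.71 at P70. Fkbp5, the receptor's co-chaperone, stood at 2006, 1804, 2099.5, 1707 and 2114 in P21 WT mice and at 2054, 2373, 2698, 1920.1 and 1552 in P21 KO mice. At P70 its values were 969, 1211, 2262, 2117 and 2027 in WT mice and 1096, 1109.8, 1027, 901 and 2158 in KO mice. The P70 values left a gap: 6 mice, WT mice 1 and 2 and KO mice 1 to 4, lay between 901 and 1211, and the other 4, WT mice 3 to 5 and KO mouse 5, lay between 2027 and 2262, within the P21 range. Both genotypes were on both sides of the gap, so the genotypes overlapped at P70 as at P21.

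Sgk1, a kinase that regulates ion channels and transporters, was at 3891, 4197, 4057, 2963 and 3928 in P21 WT mice and 4129, 4624, 5896, 3313 and 3274 in P21 KO mice. At P70 it was at 5039.5, 4884, 5291, 5054 and 5359.9 in WT mice and 4662, 5219, 3154, 1591 and 4549 in KO mice. The P70 WT mice were close together, with a mean of 5126 ± 196 (SD, n = 5), and 4 of the 5 KO mice lay below all of them, KO mouse 4 lowest. Map3k6, a kinase of the stress-activated MAP kinase cascade, had values of 198, 181, 242, 196 and 235 in P21 WT mice and 249.8, 293, 244, 259 and 182 in P21 KO mice. By P70 the values were 120.3, 264, 271, 244 and 435 in WT mice and 195, 173, 148, 117 and 432 in KO mice. At P21 4 of the 5 KO mice lay above all WT mice. At P70 both replicate 5 mice were far above the rest of their group, and the groups overlapped. Errfi1, a feedback inhibitor of the EGF receptor, was measured at 1088, 1051, 967, 1049 and 1203 in P21 WT mice and at 1117, 1201, 1444, 1083 and 1069 in P21 KO mice. In P70 mice it was at 1254, 1279.8, 1302, 1548 and 1075 (WT) and 1363, 1392, 958, 964 and 1039 (KO). KO mice 3 to 5 lay below every WT mouse at P70, and KO mice 1 and 2 lay above 4 of the 5 WT mice.

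Tsc22d3 (GILZ), which mediates part of the anti-inflammatory action of glucocorticoids, was at 3509.7, 3614, 3944, 2971 and 3998 in P21 WT mice and 3958, 4154, 4504, 3450.4 and 3447 in P21 KO mice. The P70 values were 3596, 3739, 3961, 4128 and 5061 in WT mice and 3538, 3901, 2797, 2427 and 4954 in KO mice. KO mice 1, 3 and 4 were below all P70 WT mice, and mouse 5 was the highest of its group in both genotypes. Zbtb16 (PLZF), a zinc finger transcription factor, showed 1302, 1138, 851, 1091 and 1349.9 in P21 WT mice and 1336, 1226, 958, 1356 and 1188 in P21 KO mice. Its P70 values were 1014, 1762, 2172, 2197 and 1133 in WT mice and 1432, 1149, 1166, 1219.8 and 948 in KO mice. WT mice 2 to 4 of P70 were above all 17 other mice. Both replicate 5 mice of P70 were below the median of the remaining P70 mice for Zbtb16, as they were for Errfi1. Cdkn1a (p21), an inhibitor of cyclin-dependent kinases, was at 746, 989, 928, 807 and 798 in P21 WT mice and 884, 1008, 1199, 937 and 619.9 in P21 KO mice. At P70 it was at 797, 701, 1144, 1374 and 1543 in WT mice and 624, 635, 656, 587 and 1584 in KO mice. KO mice 1 to 4 of P70 lay below all P70 WT mice and KO mouse 5 above all of them.

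Pdk4 was at 285, 326, 265, 234 and 358 in P21 WT mice and 354, 346, 414, 246 and 241 in P21 KO mice, and the groups overlapped. At P70 it was at 412, 446, 430.0, 630.2 and 493 in WT mice and 334, 382, 308, 253 and 349.6 in KO mice. Every P70 KO mouse lay below every P70 WT mouse, KO mouse 5 included, and Pdk4 was the 1 gene of the 10 with no overlap. Of 17613 genes tested at P70, 17 (0.0965%) had all KO mice below all WT mice, and since this contrast chose the genes nothing is read from the count. Plin4, a coat protein of lipid droplets, had values of 548, 548, 451, 265 and 517 in P21 WT mice and 698, 798, 849.7, 459 and 562 in P21 KO mice. At P70 it was at 388, 663, 1623, 1567 and 2783 in WT mice and 565, 676, 321, 324 and 3031 in KO mice. On the log2 scale Plin4 spanned the widest range of the 10 genes within both P70 groups, with both replicate 5 mice on top. Sult1a1, a sulfotransferase that conjugates phenols, was at 449, 604, 534, 465 and 434 in P21 WT mice and 475, 605, 676, 458 and 424 in P21 KO mice. Its values at P70 were 238, 285, 428, 386 and 637 in WT mice and 233, 267, 239.9, 239 and 569 in KO mice. The 4 mice of P70 with high Fkbp5 were also the 4 highest for Sult1a1. The other 6 were below every P21 mouse, but so was WT mouse 4, at 386, which is among those 4.

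**Figure D1:**
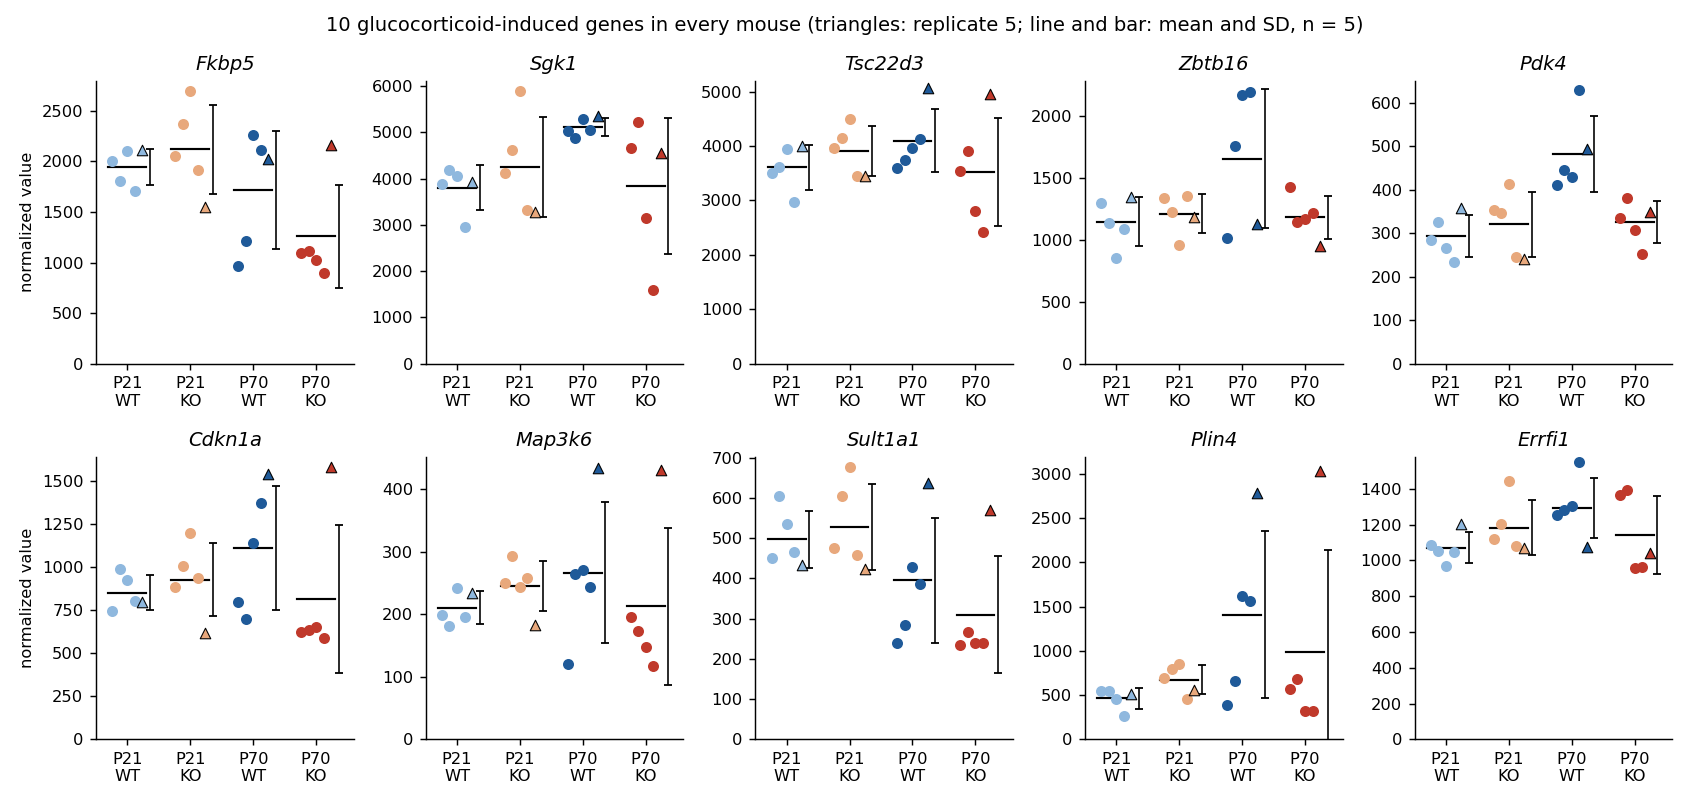
Normalized values of the 10 genes (linear axes from 0) in each mouse of the 4 groups, with replicate 5 of each group as a triangle, the group mean as a line and the SD (n = 5) as a bar; the lower end of the Plin4 bar of P70 KO mice falls below 0 and is not drawn. Pdk4 of P70 KO mice, at 253 to 382, lies below the P70 WT mice at 412 to 630. KO mouse 5 of P70 lies within or above the P70 WT range for Fkbp5, Tsc22d3, Cdkn1a, Map3k6, Sult1a1 and Plin4.

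Per length, taken as the mean value over the 20 mice divided by the summed exon length in kilobases, the levels ordered as Tsc22d3 (871), Sgk1 (868), Errfi1 (327), Sult1a1 (287), Cdkn1a (261), Zbtb16 (246), Fkbp5 (186), Plin4 (153), Pdk4 (101) and Map3k6 (50.8). Neighbours in this order differed by less than the larger within-group SD of the pair, except that Sgk1 lay above Errfi1 and Pdk4 above Map3k6 by more. The spread between mice of a group differed between the ages. At P21 the pooled SD within groups on the log2 scale ranged from 0.15 (Errfi1) to 0.41 (Plin4), with 0.15 for the median gene. At P70 it ranged from 0.23 (Errfi1) to 1.23 (Plin4), with 0.24 for the median gene. Plin4 had a larger SD at P70 than all but 0.924% of the genes tested, Map3k6 than all but 4.65%, and Cdkn1a than all but 9.26%. Pdk4 had an SD of 0.30 at P21 and 0.24 at P70. Without both replicate 5 mice the P70 SD was 0.81 for Plin4, 0.45 for Map3k6, 0.32 for Cdkn1a and 0.27 for Pdk4, with 0.14 for the median gene, and 1.84%, 9.91% and 18.8% of the genes had a larger SD than Plin4, Map3k6 and Cdkn1a. These are descriptions, since the choice of the genes rested on the same values.

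KO mice were compared with WT mice at each age by limma on log2(value + 1), where a difference of 1 is a doubling. All 10 genes had a positive KO minus WT difference at P21 and a negative one at P70, as the choice required, so neither sign is a finding. At P21 the differences ran from 0.07 ± 0.13 (SE, Sult1a1) to 0.54 ± 0.21 (Plin4), with a median of 0.11, while the median of all 17610 genes was 0.00422. Plin4 and Map3k6 (0.21 ± 0.12) had the largest, and for the other 8 the difference was at most 0.14. At P70 the differences ran from -0.19 ± 0.13 (Errfi1) to -0.78 ± 0.64 (Plin4), with a median of -0.44 against -0.00467 for all 17613 genes. The next after Plin4 was Pdk4 at -0.56 ± 0.14, which is 0.68 times the WT level, and an SE under that of 8 of the other 9. Sgk1 differed by -0.53 ± 0.26, Cdkn1a by -0.50 ± 0.29, Fkbp5 by -0.45 ± 0.28, Zbtb16 by -0.42 ± 0.22, Map3k6 by -0.37 ± 0.37, Sult1a1 by -0.36 ± 0.29 and Tsc22d3 by -0.25 ± 0.17. The change of the KO effect from P21 to P70 ran from -0.32 (Errfi1) to -1.32 (Plin4), with -0.67 for both Pdk4 and Sgk1.

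As background, limma called 0 of 17610 genes at P21, 0 of 17613 at P70 and 0 of 17637 for the change of the KO effect with age at an adjusted p under 0.05, a share of 0 in each. At an unadjusted p under 0.05 the counts were 429 (2.44%), 199 (1.13%) and 296 (1.68%). Single mice weighed on the sizes. Without KO mouse 5 the median difference of the 10 genes at P70 was -0.61, and Plin4 stood at -1.33 ± 0.48, Cdkn1a at -0.76 ± 0.20 and Map3k6 at -0.66 ± 0.29, while Pdk4 stood at -0.59 ± 0.15. Without both replicate 5 mice the median was -0.52. Without KO mouse 4 the median was -0.32 and Sgk1 was at -0.24. All 10 differences at P70 stayed below 0 with any 1 mouse left out. At P21 the differences leaned on KO mouse 3, which had the highest values of Fkbp5, Sgk1, Tsc22d3, Pdk4, Cdkn1a, Sult1a1, Plin4 and Errfi1 in its group. Without it the median at P21 was 0.03, and Cdkn1a and Sult1a1 were below 0. Without WT mouse 3 Zbtb16 was below 0. KO mouse 3 of P21 also had the highest oligodendrocyte marker sum of all mice, 574219 against 390470 to 464994 in the other P21 mice. Among P21 mice it was also the highest for microglia (7993, others at most 7145), meningeal fibroblasts (8103, at most 6733), ependymal cells (843, at most 578) and choroid plexus (26734, at most 23381), and the lowest for neurons (142991, at least 146035), endothelial cells (5278, at least 6097) and mural cells (5089, at least 5141). Its pituitary sum was 1516, where the other P21 mice had a median of 138 and a highest value of 2345. The part of these sums in the P21 differences was not tested.

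**Figure D2:**
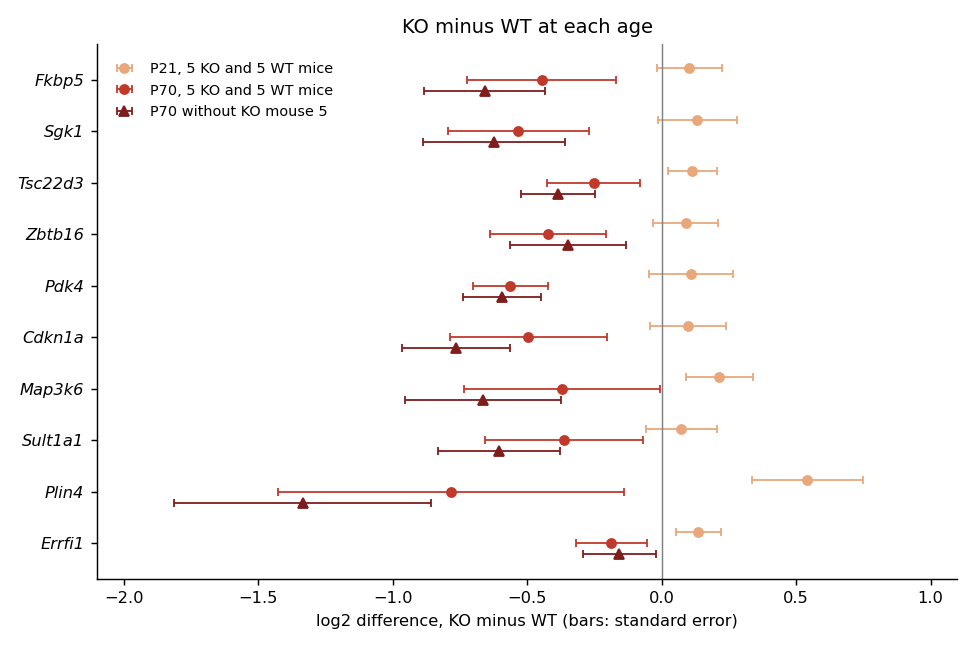
Difference between KO and WT mice in log2(value + 1) for the 10 genes at P21 (pale circles), at P70 (red circles) and at P70 without KO mouse 5 (triangles), with standard errors as bars. The genes were chosen for opposite signs, and the points range from 0.07 to 0.54 at P21 and from -0.19 to -0.78 at P70, with Plin4 at both far ends.

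A further 38 genes that glucocorticoids are known to raise, none of them among the 10, were read beside them as a list. At P21 32 of the 38 had a positive KO minus WT difference (median 0.07), and at P70 35 of the 38 had a negative one (median -0.16). Positive at P21 and negative at P70 were 31 of the 38 (81.6%), against 4630 of 17293 genes (26.8%) in all. None of the 38 passed the threshold of limma at either age or in the interaction, where 3, 2 and 3 had an unadjusted p under 0.05. The smallest unadjusted p at P21 belonged to Pnpla2, a triglyceride lipase (0.24 ± 0.09), and Ucp2, a mitochondrial carrier (0.24 ± 0.10). At P70 it belonged to Bcl6, a transcriptional repressor (-0.23 ± 0.09), and Ddit4, an inhibitor of mTORC1 (-0.35 ± 0.16). Without KO mouse 3 of P21 the difference at P21 was positive for 25 of the 38 (median 0.02), and without KO mouse 5 of P70 the difference at P70 was negative for 34 of the 38. The 38 genes were measured in the same mice as the 10, so a mouse that is high for one is often high for another, and the count was not tested. The list was also drawn up with earlier results of these data known, so the count is no independent check on the 10 genes.

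Other lists were read in the same way. Nr3c1, the glucocorticoid receptor, differed between KO and WT mice by 0.04 ± 0.06 at P21 and 0.09 ± 0.24 at P70, and of 15 receptor, chaperone and cofactor genes 4 were positive at P21 and negative at P70 (26.7%). Of 15 clock genes 11 were (73.3%), and of 11 immediate early genes, which neuronal activity raises within minutes, none were. In the latter the signs ran the other way, with 10 of 11 below 0 at P21 and 10 of 11 above 0 at P70. Of 6 genes that make or clear steroids in brain, Akr1c14, which reduces steroids, stood at 0.63 ± 0.23 at P70. Pomc, the precursor of ACTH, stood at 0.59 ± 0.27. Its highest P70 values were 176 in KO mouse 3 and 95.9 in KO mouse 4, and the summed value of 5 pituitary markers, Pomc among them, was 7627 and 537 in these mice against 109 to 205 in the other 8. The part of pituitary tissue in the difference was not tested. Neither passed the threshold (adjusted p = 1.00 for both by limma), and none of the genes in these lists did at either age.

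Between the ages, Pdk4 rose while Fkbp5 and Sult1a1 fell. Averaged over genotypes, Pdk4 was higher at P70 than at P21 (log2 difference 0.38 ± 0.11 SE, adjusted p = 0.0167 by limma over 20 mice). Fkbp5 was at 0.69 times its P21 level (-0.53 ± 0.16, adjusted p = 0.0204) and Sult1a1 at 0.65 times (-0.62 ± 0.17, adjusted p = 0.0104). Among 17637 genes, 12.6% rose and 12.8% fell at an adjusted p under 0.05, so 1 of 10 higher and 2 of 10 lower is close to the share over all genes. The 3 calls held with any 1 mouse left out. With the mouse number as a random block, only Sult1a1 of the 3 passed (adjusted p = 0.0236 by limma, against 0.0882 for Fkbp5 and 0.107 for Pdk4).

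The other 7 genes did not pass the threshold. Plin4 had the largest difference, 0.66 ± 0.36 (adjusted p = 0.197), followed by Zbtb16 at 0.22 ± 0.13 (adjusted p = 0.245). Sgk1 stood at 0.11 ± 0.16, Errfi1 at 0.10 ± 0.08, Cdkn1a at 0.03 ± 0.17, Map3k6 at -0.05 ± 0.21 and Tsc22d3 at -0.00187 ± 0.10. The average hides a split that follows from how the genes were chosen. In WT mice alone the difference between the ages was positive for 8 of 10 genes (median 0.29), with Pdk4 at 0.71 ± 0.14, Plin4 at 1.32 ± 0.42 and Sgk1 at 0.44 ± 0.09. In KO mice alone it was negative for 9 of 10 (median -0.21), with Pdk4 at 0.04 ± 0.16. Fkbp5 and Sult1a1 were below 0 in both genotypes. They stood at -0.25 ± 0.20 and -0.40 ± 0.21 in WT mice and at -0.80 ± 0.22 and -0.84 ± 0.23 in KO mice. Pdk4 was above 0 in both, but in KO mice by less than its SE.

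**Figure D3:**
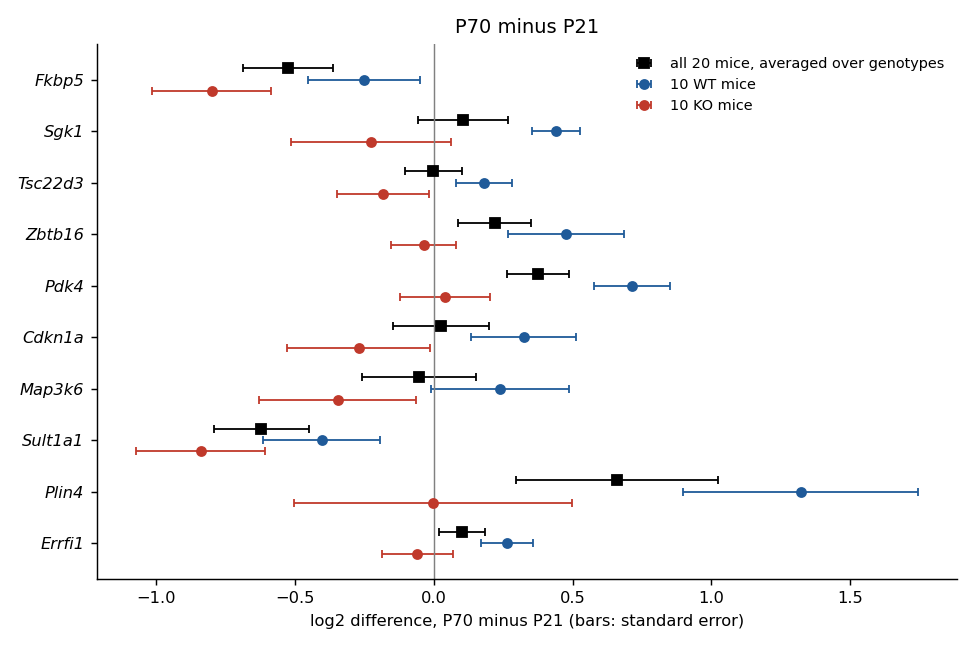
Difference between P70 and P21 in log2(value + 1) for the 10 genes, averaged over genotypes (black squares), in 10 WT mice (blue) and in 10 KO mice (red), with standard errors as bars. Averaged over genotypes Pdk4 lies at 0.38 and Fkbp5 and Sult1a1 at -0.53 and -0.62, and the WT points lie to the right of the KO points, as the choice of the genes required.

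Genes of the receptor and fuel lists also differed between the ages. Of the 15 receptor, chaperone and cofactor genes 7 rose and none fell: Nr3c2 by 0.36 ± 0.08 (adjusted p = 0.00262), Fkbp4, the co-chaperone that helps the receptor into the nucleus, by 0.27 ± 0.06 (adjusted p = 0.00292), and the Hsp90 genes' Hsp90ab1 by 0.20 ± 0.04 and its partner Stip1 by 0.26 ± 0.06. Nr3c1 stood at 0.24 ± 0.13 (adjusted p = 0.197). Of the 38 other glucocorticoid-induced genes 8 rose and 9 fell. Among the 9 were Angptl4 (-0.97), Mt2 (-0.67) and Ddit4 (-0.40), with adjusted p of 0.00728, 0.00976 and 0.00549 by limma. Xdh, which makes uric acid, rose by 1.65 ± 0.31, Arl4d, a small GTPase, by 0.82 ± 0.12 and the clock gene Per1 by 0.27 ± 0.10 (adjusted p = 0.0458), and Klf9 stood at -0.19 ± 0.07 (adjusted p = 0.061). Without KO mouse 5 of P70 the counts were 4 and 11, and without both replicate 5 mice 5 and 14. Without both, Xdh stood at 1.31 ± 0.24 and Per1 at 0.17 ± 0.08 (adjusted p = 0.0924), so the call of Per1 was lost. Nr3c1 then passed at 0.42 ± 0.06, and 10 of the 15 receptor, chaperone and cofactor genes rose. Calls over all genes grew too, from 2227 higher and 2251 lower of 17637 with all mice to 3340 and 3235 of 17652. Without KO mouse 5 of P70 alone they were 2562 and 2594 of 17633. A larger count in a list is therefore not read as particular to that list. Among 16 relatives of the 10 genes, 3 rose and 2 fell: Sgk2 decreased by 1.00 ± 0.15, Plin3 rose by 0.47 ± 0.10, and Pdk2, another pyruvate dehydrogenase kinase, stood at 0.13 ± 0.08 (adjusted p = 0.273).

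Of 25 genes of fuel choice 4 rose and 7 fell, with Angptl4, already counted above, among the latter. The pyruvate dehydrogenase subunits Pdhb and Pdhx decreased by 0.30 ± 0.04 and 0.26 ± 0.04, in the opposite direction to the kinase Pdk4. Of 9 other targets of p53, which also raises Cdkn1a, 1 rose and 3 fell, with Trp53inp1 lower by 0.54 ± 0.11 on the log2 scale. Immediate early genes rose in 9 of 11 cases (Fosb by 2.30 ± 0.18, Egr3 by 1.36 ± 0.16) and clock genes in 6 of 15 (Per2 by 0.68 ± 0.06). The steroid 5-alpha reductase Srd5a1 fell to 0.41 times its P21 level (adjusted p = 2.38e-10) and the CRH receptor Crhr1 rose by 0.34 ± 0.06, or by 0.27 ± 0.04 without both replicate 5 mice. The summed value of 7 oligodendrocyte markers was 390470 to 574219 at P21 and 148378 to 196026 at P70, with no overlap, and all 7 markers fell. All 5 blood markers fell as well. Their part in the age differences of the 10 genes was not tested.

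Between mice of the same group, several of the 10 genes moved with Fkbp5. The slope on Fkbp5 is the difference in log2(value + 1) of a gene that goes with a difference of 1 in Fkbp5 once the 4 group means are removed, so it uses no contrast between groups. Of the 9 other genes 5 had a slope above 0 at an adjusted p under 0.05 and none below, beside 5.34% of 17636 genes above and 7.94% below. A choice by shared signs can favour genes that move with Fkbp5, so the count of 5 is not independent of it. Plin4 had the steepest, 2.04 ± 0.22 (SE, adjusted p = 0.00025 by limma over 20 mice), which is 4.12-fold more Plin4 per doubling of Fkbp5. Map3k6 followed at 1.04 ± 0.17 (adjusted p = 0.00377), Cdkn1a at 0.95 ± 0.12 (adjusted p = 0.000519), Sult1a1 at 0.90 ± 0.13 (adjusted p = 0.00177) and Tsc22d3 at 0.47 ± 0.10 (adjusted p = 0.0152).

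Sgk1 (0.48 ± 0.20, adjusted p = 0.0944) and Pdk4 (0.36 ± 0.13, adjusted p = 0.0657) did not pass the threshold. Zbtb16 stood at 0.08 ± 0.18 and Errfi1 at 0.09 ± 0.11, and without both replicate 5 mice of P70 at 0.46 ± 0.19 and 0.29 ± 0.12 (adjusted p = 0.56 for both). WT mouse 5 of P70 was the highest of its group for Plin4, Map3k6, Cdkn1a, Sult1a1, Tsc22d3 and Sgk1, but the lowest for Errfi1 and next to the lowest for Zbtb16.

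The calls rested largely on 1 mouse. Without KO mouse 5 of P70, 19 of 17632 genes (0.108%) had a slope above 0 that passed the threshold and none had one below, against 2342 genes in both directions with it. Plin4 (1.75 ± 0.26, adjusted p = 0.0132) and Cdkn1a (0.78 ± 0.14, adjusted p = 0.0238) were 2 of the 19. The slopes of Map3k6 (0.86 ± 0.20), Sult1a1 (0.77 ± 0.16) and Tsc22d3 (0.39 ± 0.12) then had adjusted p of 0.152, 0.0601 and 0.372. Without both replicate 5 mice 3 of the 9 passed. These are the mice whose cell type sums and Nr3c1 lay outside the range of the other P70 mice, and the part of those differences in the slopes was not tested.

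Within each age the slopes kept their sign for 8 of the 9 genes. In the 10 P21 mice alone, where Fkbp5 has no gap, Sgk1 had a slope of 1.06 ± 0.19 (adjusted p = 0.0524), Pdk4 of 0.98 ± 0.26 (adjusted p = 0.0868), Cdkn1a of 0.88 ± 0.23 and Tsc22d3 of 0.61 ± 0.13 (adjusted p = 0.0659). None of the 9 passed there, where 13 of 17609 genes (0.0738%) did upward. At an unadjusted p under 0.05, 8 of the 9 were above 0, beside 11.6% of all genes, and Zbtb16 was at -0.29 ± 0.28. The choice by shared signs limits this count too. KO mouse 3 had the highest Fkbp5 of the P21 mice, at 2698, and several cell type sums outside the range of the other P21 mice. Its part in the P21 slopes was not tested. In the 10 P70 mice alone Plin4 passed (2.23 ± 0.24, adjusted p = 0.0259), and it was 1 of the 2 genes that did of 17612 (0.0114%). There Pdk4 stood at 0.24 ± 0.14, Sgk1 at 0.36 ± 0.27 and Errfi1 at 0.02 ± 0.15. Pdk4, Sgk1 and Errfi1 thus had steeper slopes in P21 than in P70 mice, and Plin4 and Map3k6 the reverse, but the difference between the ages was not tested.

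**Figure D4:**
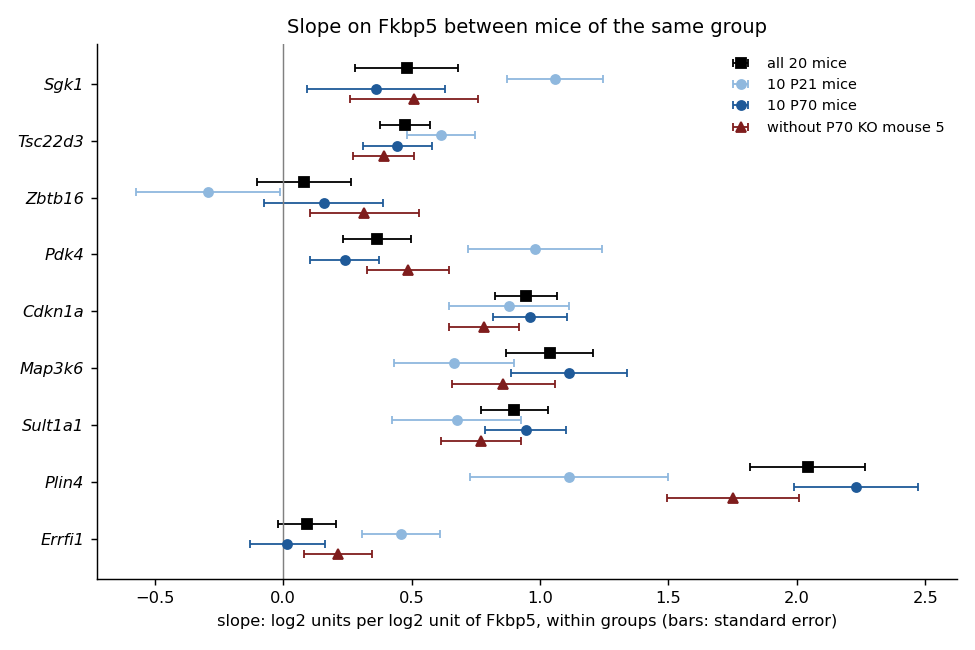
Slope of 9 genes on Fkbp5, in log2 units per log2 unit of Fkbp5 with the group means removed, in all 20 mice (black squares), 10 P21 mice (pale blue), 10 P70 mice (dark blue) and without KO mouse 5 of P70 (triangles), with standard errors as bars. Plin4 lies farthest right in every fit, from 1.11 to 2.23, and Zbtb16 lies at -0.29 in P21 mice and at 0.31 without KO mouse 5.

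Of the 38 other glucocorticoid-induced genes 16 had a slope on Fkbp5 above 0 that passed the threshold and none one below. Angptl4, which blocks lipoprotein lipase, had a slope of 1.33 ± 0.19 (adjusted p = 0.00168), Mt2, a metallothionein that binds zinc, of 1.00 ± 0.13 (adjusted p = 0.000519) and Ucp2 of 0.73 ± 0.11 (adjusted p = 0.00193). Mt2 also passed in P21 mice alone (1.18, adjusted p = 0.0211), as did Ucp2 (0.73, adjusted p = 0.0467). Without KO mouse 5 of P70 3 of the 38 passed, Mt2 (adjusted p = 0.0219) and Angptl4 (adjusted p = 0.0456) among them.

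The receptor itself went the other way. Nr3c1 had a slope of -0.65 ± 0.11 (adjusted p = 0.0045) and Nr3c2 of -0.31 ± 0.09 (adjusted p = 0.0395), and 4 of the 15 receptor, chaperone and cofactor genes passed below 0 and none above. In the P70 WT group Nr3c1 stood at 3185, 2846, 2156, 2376 and 1581 in mice 1 to 5, and in the P70 KO group at 2858, 3001, 2957, 2857 and 1362. The 4 P70 mice with high Fkbp5 had the 4 lowest values of Nr3c1. In P21 mice alone the slope of Nr3c1 was -0.20 (adjusted p = 0.398), and without KO mouse 5 of P70 it was -0.44 (adjusted p = 0.217) and none of the 15 passed. Of the relatives of the 10 genes 4 of 16 passed above 0 and 1 below, Pdk2 at 0.35 ± 0.08 (adjusted p = 0.0256) and Tsc22d1 at 0.21 ± 0.06 (adjusted p = 0.0356) among those above, and none did without KO mouse 5.

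In the other lists few genes passed. Of 25 genes of fuel choice 3 had a slope above 0 and 2 below. The 3 above were Angptl4, Ucp2 and Pdk2, which also belong to the lists already given and are counted there. Of 9 p53 targets Phlda3 was above (0.41 ± 0.12) and Zmat3 below (-0.20 ± 0.06). Of 11 immediate early genes 2 were below, Egr3 (-0.66 ± 0.17) and Egr1 (-0.49 ± 0.13), and of 15 clock genes Nr1d1 was above (0.30 ± 0.10) and Clock below (-0.50 ± 0.14). None of 6 steroid-handling and none of 8 stress-axis genes passed by limma, and 1 in each had an unadjusted p under 0.05, Srd5a1 (0.26 ± 0.09) and Crh (0.25 ± 0.11). Without KO mouse 5 of P70, 1 gene of the fuel list and none of these others passed.

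**Figure D5:**
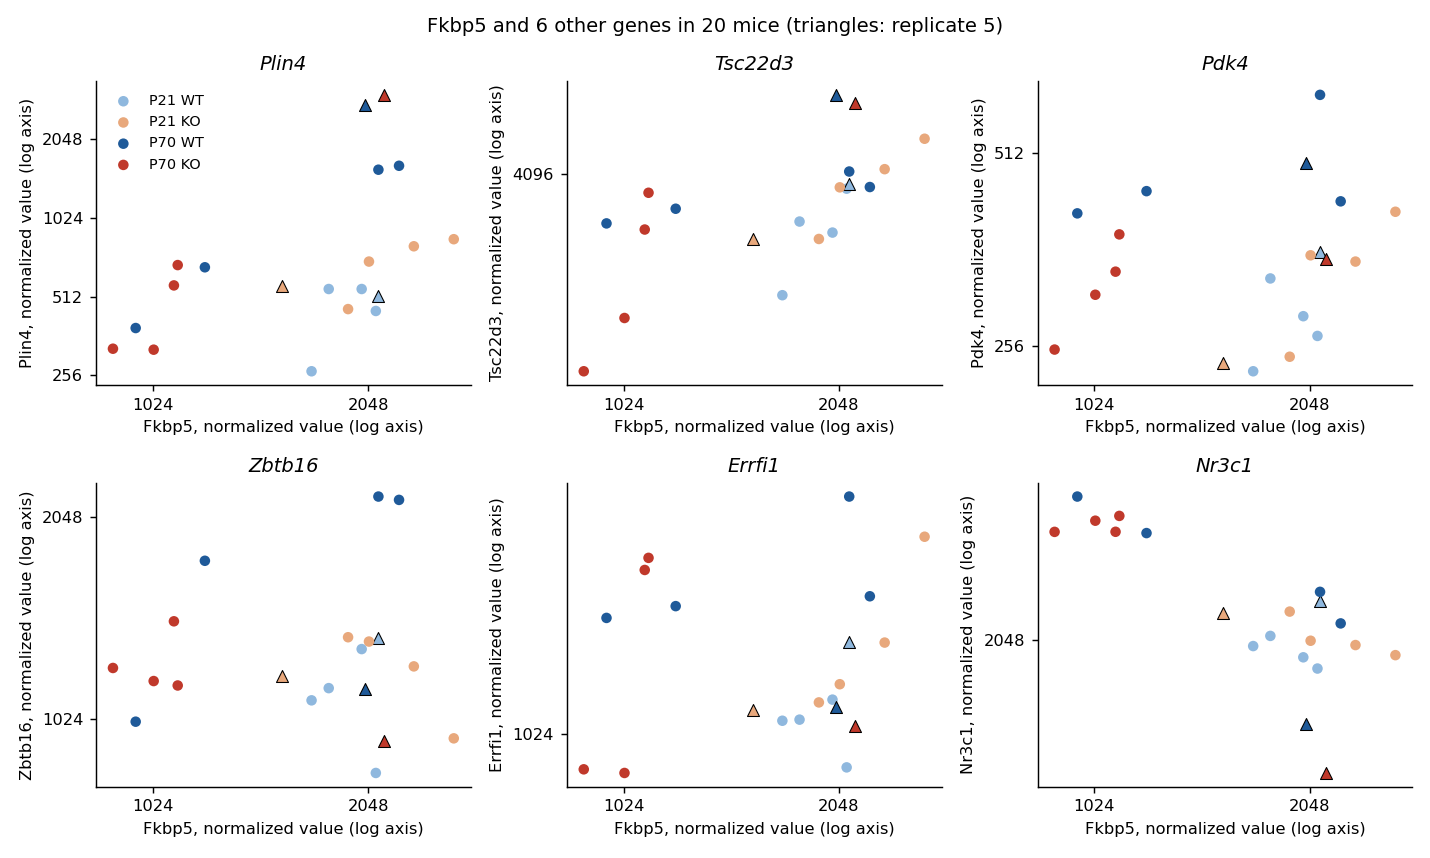
Normalized value of 5 of the genes and of Nr3c1 against that of Fkbp5 in each of 20 mice, both axes on a log scale, with colours for the 4 groups and triangles for replicate 5. At P70 (dark points) Fkbp5 falls into values of 901 to 1211 and of 2027 to 2262; Plin4 is high and Nr3c1 low in the latter, and Pdk4 of P70 KO mice stays below that of P70 WT mice on both sides.

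The genes most like Fkbp5 were ranked by Pearson's r of log2 values with group means removed, over 20 mice and 14203 other genes with a mean of at least 50. The gap in Fkbp5 at P70 weighs on this r, so it is given with that of the 10 P21 mice alone. The first 10 were Tekt4 (0.909, and 0.819 at P21), Sh2b2 (0.905 and 0.646), Plin4 (0.901 and 0.646), Tcim (0.894 and 0.908), Ucp3 (0.890 and 0.751), Dgat2 (0.888 and 0.856), Cdkn1a (0.881 and 0.757), Rhou (0.881 and 0.910), Mt2 (0.878 and 0.920) and Phactr3 (0.873 and 0.865). Sult1a1 ranked 20 and Map3k6 37, whereas Tsc22d3 ranked 133, Pdk4 1712, Sgk1 2660, Errfi1 5848 and Zbtb16 6617. The genes most like Pdk4 were others: Thbs4 (0.858, and 0.869 at P21), Med18 (0.798 and 0.913), Lbr (0.786 and 0.884), Slc25a47 (0.756 and 0.776) and Spsb1 (0.751 and 0.919), followed by Aass, F3, Klhdc7a, Cab39l and Dnajc12 at 0.750 to 0.730. Sgk1 ranked 21 in likeness to Pdk4, Tsc22d3 33 and Errfi1 41, ahead of Fkbp5 at 175.

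Over the 45 pairs of the 10 genes, r within groups was above 0 in 36 at P21 (median 0.58) and in 36 at P70 (median 0.51). Without both replicate 5 mice it was above 0 in all 45 at P70 (median 0.61). Zbtb16 had an r of 0.10 with Fkbp5 and 0.11 with Pdk4. The mice share libraries and normalization across genes, so these correlations are descriptions.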

How the data were processed

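Whole brain RNA (poly-A selected, paired-end reads) was sequenced from 20 mice in 4 groups of 5, grouped by the sample labels. For each mouse the authors quantified transcripts with Salmon (GRCm38, GC bias corrected), summed them to genes through tximport and scaled libraries by DESeq2. The deposited signal values are these normalized abundances, 1 per gene and mouse. The submitters' processing notes name Salmon 1.1.0, DESeq2 1.26.0 and R 3.6.2. Of 19463 gene IDs 19447 matched a symbol in GENCODE M21, which also gave coordinates and exon lengths. Promoter windows came from RefSeq (GRCm38.p6).

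Values are not whole counts, so limma 3.58.1 in R 4.3.3 (lmFit, eBayes with an intensity trend) was fitted to log2(value + 1) where the mean value reached 10. P-values were adjusted over all genes (Benjamini-Hochberg, threshold 0.05). KO against WT was fitted within each age, the other comparisons over 20 mice, and the slope took Fkbp5 as a covariate beside the 4 groups. Log differences understate the change of low genes. The depth per mouse is unknown from these values. The fits were tested on simulated data. Replicates are separate mice. The 10 genes and all gene lists were chosen with earlier results of these data known. The lists overlap: Per1, Angptl4, Ucp2, Fkbp4, Pdk1, Pdk2, Pdk3 and Plin2 are counted in each list that holds them. Named genes are the 10, Katnal2, a few receptor and target genes, the 2 genes of each list with the smallest unadjusted p in each comparison, and the 10 most like Fkbp5 and Pdk4. The correlations with permutation tests that had been planned beside the slopes are not given, since Fkbp5 at P70 falls into separate clusters. Alternatives were no trend, a pseudocount of 10, other filters, quantile normalization, the replicate number as a block, and mice, ages or genotypes left out.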

Additional observations from a re-analysis of the deposited data

Results flagged for a closer look

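In 48 groups of 5 mice (the 10 genes, Katnal2 and Nr3c1 in 4 groups) 7 held a mouse whose gap to the next was too wide by Dixon's test at 95%, which chance alone does in about 1 in 20 groups. The test used values without a log, and many of the genes vary together in the same mice, so the 48 groups are not independent. Of the 7, 6 fell on the same mouse, KO mouse 5 of P70. It was highest for Fkbp5 at 2158 (next mouse 1109.8), Cdkn1a at 1584 (next 656), Map3k6 at 432 (next 195), Sult1a1 at 569 (next 267) and Plin4 at 3031 (next 676), and lowest for Nr3c1 at 1362 (next 2857). Among P21 WT mice, mouse 4 was lowest for Sgk1 at 2963 (next 3891).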

How the results depend on the processing

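With 1 mouse left out the median KO minus WT difference of the 10 genes was 0.03 (without KO mouse 3) to 0.21 (without KO mouse 5) at P21 and -0.61 (without KO mouse 5) to -0.32 (without KO mouse 4) at P70. The number of genes with an unadjusted p under 0.05 moved as well. With the replicate number as a block it was 732 at P21, 610 at P70 and 710 for the interaction. In a single fit of all 20 mice it was 207 at P21 and 346 at P70. With a mean of at least 50 it was 108 at P70 and 182 for the interaction. Without both replicate 5 mice of P70 it was 651 at P70 and 670 for the interaction, and 1 gene at P70 had an adjusted p under 0.05. With 1 mouse left out it was 353 to 657 at P21, 162 to 515 at P70 and 254 to 665 for the interaction, highest without KO mouse 4 at P21 and without KO mouse 5 of P70 in the other 2, and 0 to 1 genes passed at P21. Nr3c1 at P70 then ranged from -0.059 without WT mouse 5 to 0.30 without KO mouse 5.

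For P70 against P21 averaged over genotypes the replicate block, fitted as a random effect and added after seeing the data because a fixed block within each age could not be fitted, gave 2840 genes and 1 of the 10, Sult1a1 (adjusted p = 0.0882 for Fkbp5 and 0.107 for Pdk4 by limma). WT mice alone gave 1643 genes and KO mice alone 1467. Genes that had not passed changed sign. In WT mice Tsc22d3 was at 0.18 and Map3k6 at 0.24. In KO mice Sgk1 was at -0.23, Zbtb16 at -0.038, Cdkn1a at -0.27, Plin4 at -0.0032 and Errfi1 at -0.060. Without both replicate 5 mice Cdkn1a was at -0.18. With 1 mouse left out Tsc22d3 ranged from -0.069 to 0.060, Cdkn1a from -0.11 to 0.10 and Map3k6 from -0.20 to 0.075.

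For the Slope on Fkbp5 within groups, the number of genes past the threshold was 708 with no intensity trend, 14 with the replicate block, 25 without both replicate 5 mice, 17 in P21 mice, 2 in P70 mice and 6167 with Tsc22d3 as the covariate. It was 19 to 5295 with 1 mouse left out, lowest without KO mouse 5 of P70, 298 without WT mouse 2, and highest without WT mice 3, 4 (4971) and 1 (4361) of P70. Of the 9 other genes, 2 (Plin4 and Tsc22d3), 3, 0 and 1 passed with the block, without both replicate 5 mice, in P21 mice and in P70 mice, and 2 to 6 with 1 mouse left out. Zbtb16 was at -0.29 in P21 mice, at -0.33 against Tsc22d3, from -0.20 to 0.31 with 1 mouse left out, at 0.46 ± 0.19 without both replicate 5 mice and at 0.62 ± 0.15 with the block (adjusted p = 0.195 by limma), where Errfi1 was at 0.53 ± 0.10 (adjusted p = 0.0918). Numbers were taken to pair mice only if every same-numbered KO and WT pair deviated together with r over 0.1. This was not met: r was -0.0091 to 0.26 at P21 and 0.075 to 0.71 at P70, where 4 of 5 pairs were over 0.1 and 7 of 10 mice were closest to their own number. The spread and the pair correlations without both replicate 5 mice were added after seeing the data. The causes were not tested. The sequencing depth is unknown, so its part in these limits could not be assessed.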
